A study of Mus musculus with 4 samples.

Results

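The cells described here were the basal cells of the mouse mammary gland with the highest contractile expression, 3643 of 10927 non-cycling basal cells and of 36884 cell barcodes in all. They were chosen by their measured expression in 2 steps. Unique molecular identifiers (UMIs, which count single captured transcripts) were scaled to 10000 per barcode, log2 transformed after adding 1 and turned into z scores over all barcodes. Each barcode then received the mean of a basal panel (Krt5, Krt14, Krt17, Acta2, Myh11, Cnn1, Oxtr, Trp63), a luminal progenitor panel and a hormone-sensing luminal panel of 8 genes each. Basal cells had a basal mean above 0.3 that was at least 0.5 above both luminal means, and cells with 4 or more UMIs over Mki67, Top2a, Birc5, Ube2c and Cdk1 were left out as cycling (123 basal cells). In each library the remaining basal cells were ranked by the summed level of Acta2, Tagln, Cnn1, Myl9, Actg2 and Tpm2, and the top 1 in 3 was taken as contractile-high. The next 1 in 3 (contractile-middle) and the last (contractile-low) serve for comparison.

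Myoepithelial cells form the outer layer of mammary ducts and alveoli and carry both the keratins of a basal epithelium and the contractile apparatus of smooth muscle. Oxytocin released during suckling raises their calcium, calmodulin then activates myosin light chain kinase, and the contraction of actin and myosin expels milk. The same cells lay down basement membrane and secrete signals to the luminal layer, and the smooth muscle genes are known targets of serum response factor and its myocardin-related coactivators.

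The study compared mammary cells of Zeb1 MSKO and control mice of strain C57BL/B6, sorted by flow cytometry and captured with the 10x Chromium 3′ v2 chemistry. Zeb1 is a transcription factor known for repressing epithelial genes. There was 1 library for Zeb1 MSKO at 9 weeks, 1 for Zeb1 MSKO at 8 weeks, 1 for control at 9 weeks and 1 for control at 8 weeks, so that each genotype had 2 libraries and each age had 2. The labels do not expand MSKO, and the deleted part of Zeb1, the driver of the deletion, the sort markers and the animals behind each library are not stated in the labels. Because nothing says that separate animals were used, each p-value reflects only how much these few libraries vary, and that variation may be technical.

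Contractile-high cells numbered 797 and 1561 in the Zeb1 MSKO libraries at 9 and 8 weeks, and 699 and 586 in the control libraries at 9 and 8 weeks. Together they held 7394792 and 10611262 UMIs in Zeb1 MSKO and 6682973 and 5614866 UMIs in control at 9 and 8 weeks. The median contractile-high cell had 8731 and 6279 UMIs in Zeb1 MSKO at 9 and 8 weeks, and 9022 and 9341.5 UMIs in control. The shallowest contractile-high cells were those of Zeb1 MSKO at 8 weeks, where basal cells made up 48.3% of the barcodes, against 17.9% to 27.5% in the other libraries. Of all barcode sequences, 682 occurred in more than 1 library, and 8 of these were contractile-high in the libraries concerned. A doublet caller marked 143 contractile-high cells, 99 of them in the Zeb1 MSKO library at 8 weeks.

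The rule takes an equal share of each library, so its threshold follows the library. The last cell inside the threshold had a contractile sum of 266.6 UMIs per 10000 in Zeb1 MSKO at 9 weeks and the first outside had 265.8. In Zeb1 MSKO at 8 weeks these values were 124.33 and 124.31. In control they were 244.00 and 243.98 at 9 weeks, while at 8 weeks they were 215.0 and 214.8. The distribution had no gap at the threshold in any library, so contractile-high cells are the upper range of a continuous distribution and not a separate group. The Zeb1 MSKO library at 8 weeks stood apart: its contractile-high cells had a median sum of 176, against 345 in Zeb1 MSKO at 9 weeks, 311 in control at 9 weeks and 288 in control at 8 weeks. At a common level of 200 UMIs per 10000, 52.6% and 11.8% of non-cycling basal cells lay above in Zeb1 MSKO at 9 and 8 weeks, and 47.4% and 38.1% in control.

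**Figure D1:**
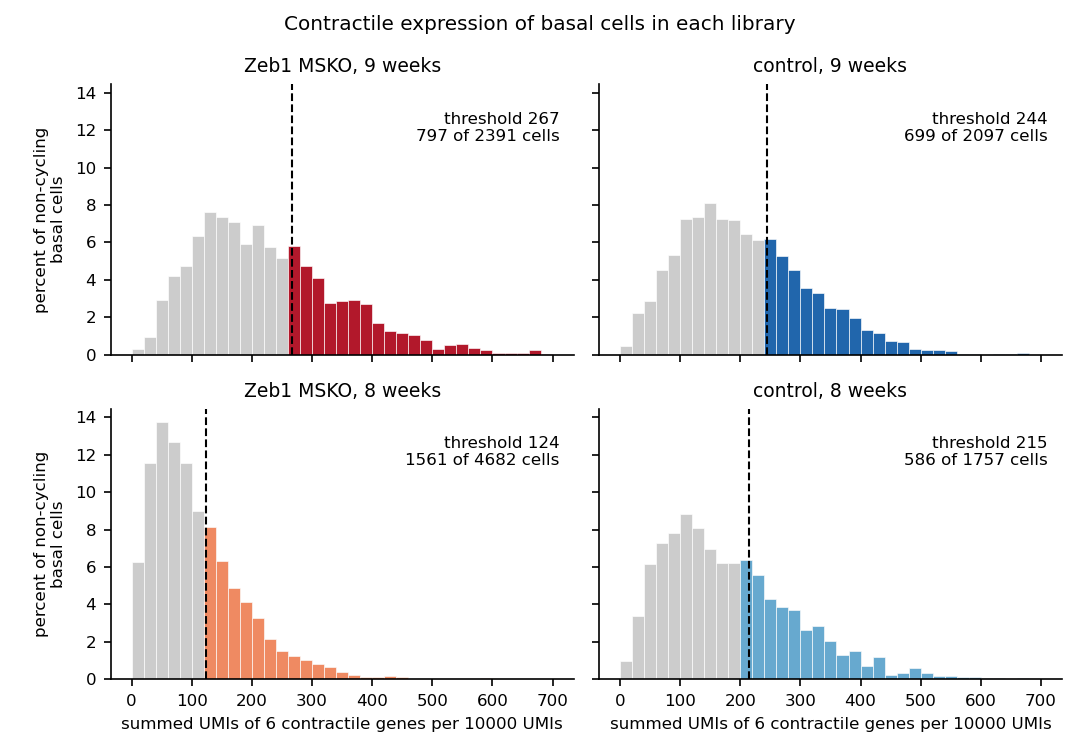
Distribution of the summed UMIs of Acta2, Tagln, Cnn1, Myl9, Actg2 and Tpm2 per 10000 UMIs (horizontal axis, shown to 700) over non-cycling basal cells of each library (vertical axis, percent of cells). The dashed line marks the last cell inside the threshold, bins from it upwards are coloured, and the Zeb1 MSKO library at 8 weeks has the lowest threshold, 124.

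The label was checked against Acta2, Tagln, Cnn1 and Krt14, all of which the rule used, so the values are a description. Acta2, smooth muscle actin, was at 18568 and 10014 CPM (counts-per-million, from the UMIs summed over the cells) in contractile-high cells of Zeb1 MSKO at 9 and 8 weeks, and at 16433 and 14907 CPM in control. In luminal progenitor panel cells of the 4 libraries Acta2 averaged 98.0 CPM. Krt14, a basal keratin, was detected in 99.6% to 99.7% of contractile-high cells, and 9 of the 3643 had no UMI of either Krt5 or Krt14. Luminal progenitor panel cells give a comparison for such shares. A Krt14 UMI was found in 18.3% and 65.0% of them in Zeb1 MSKO at 9 and 8 weeks, and in 24.6% and 16.9% in control. Their median depths were 7602 to 8492 UMIs, and a single cell of control at 8 weeks held 109 Krt14 UMIs. A UMI of the luminal keratins Krt8 or Krt18 was found in 97.9% to 99.6% of contractile-high cells and in 95.6% to 98.8% of contractile-low cells. The part of free RNA, doublets or expression in these shares was not tested.

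Pericytes and vascular smooth muscle share the contractile genes but lack basal keratins. Their 10 markers summed to 35.6 and 31.7 CPM in contractile-high cells of Zeb1 MSKO at 9 and 8 weeks and to 15.9 and 25.8 CPM in control, and a UMI of Rgs5, a defining pericyte gene, was found in 17 and 41 cells of Zeb1 MSKO at 9 and 8 weeks and 14 and 15 cells of control. The 8 fibroblast markers summed to between 165 and 337 CPM, 6 Schwann cell markers to between 85.7 and 174 CPM with Cdh19 at 0, and 8 immune markers to between 38.2 and 128 CPM with Cd3e and Nkg7 at 0. Endothelial markers stayed between 6.14 and 34.8 CPM and hair follicle markers between 29.6 and 54.7 CPM.

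The genes that chose the cells differed between contractile-high cells and contractile-low cells by construction, and nothing is read from them. Averaged over the 4 libraries, Tagln was at 5607 CPM in contractile-high cells and 1425 CPM in contractile-low cells, Cnn1 at 2111 and 515, Myl9 at 1944 and 574, Actg2 at 965 and 158 and Tpm2 at 4675 and 1431. Myh11, smooth muscle myosin heavy chain and part of the basal panel, was at 640 CPM in contractile-high cells and 200 CPM in contractile-low cells. Krt14 and Krt5 hardly differed, with median log2 ratios of 0.05 and 0.09, and Trp63, the basal lineage transcription factor, was lower in contractile-high cells of all 4 libraries, at 65.7 CPM against 99.0 CPM in contractile-low cells. Together the 6 contractile genes took up 3.74% and 1.95% of all UMIs of contractile-high cells in Zeb1 MSKO at 9 and 8 weeks and 3.32% and 3.11% in control, against 1.10% and 0.370% in contractile-low cells of Zeb1 MSKO and 1.01% and 0.779% in those of control.

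Outside the rule's genes, the smooth muscle contractile list was higher in contractile-high cells, with 20 of 20 genes considered higher in all 4 libraries, and the immediate early list was lower, with 13 of 16 lower in all 4. Of 5052 genes averaging 20 CPM or more in contractile-high or contractile-low cells, 17 were at least 2-fold higher in contractile-high cells than in contractile-low cells of every library (0.337% of those considered) and 7 at least 2-fold lower (0.139%). Simple agreement in direction was common: 1212 genes were higher in all 4 libraries (24.0%) and 1130 lower (22.4%). Because the cells were ranked within these libraries on coexpressed genes, these counts are descriptions with no test. Contractile-high cells were also deeper than contractile-low cells in every library, with medians of 8731 and 6279 UMIs against 6665 and 4986 UMIs in Zeb1 MSKO at 9 and 8 weeks and of 9022 and 9342 UMIs against 6783 and 6151 UMIs in control. Choosing the cells after thinning each barcode to 2500 UMIs gave 17 genes higher and 8 lower. The counts of the cells so chosen were summed at full depth, so the part of depth in the ratios was not tested.

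Among the named higher genes were 2 regulators of myosin and a channel subunit. Mylk, the myosin light chain kinase that starts smooth muscle contraction, was at 1044 and 534 CPM in contractile-high cells of Zeb1 MSKO at 9 and 8 weeks, and at 1139 and 604 CPM in those of control. In contractile-low cells it was at 362 and 150 CPM in Zeb1 MSKO and at 332 and 145 CPM in control. Contractile-high and contractile-low values did not overlap, and the median log2 ratio was 1.81. Ppp1r14a encodes CPI-17, an inhibitor of myosin phosphatase that keeps myosin phosphorylated. It was at 89.1 and 25.6 CPM in contractile-high cells of Zeb1 MSKO at 9 and 8 weeks and at 88.6 and 59.7 CPM in those of control, against 22.1 and 7.58 CPM in contractile-low cells of Zeb1 MSKO and 20.0 and 14.1 CPM in those of control, so its lowest contractile-high value was only just above its highest bottom value. Kcnmb1, the beta subunit that tunes the calcium-activated potassium channel of smooth muscle, reached 48.5 and 13.1 CPM in contractile-high cells of Zeb1 MSKO and 47.0 and 32.2 CPM in those of control, against 13.9 and 1.12 CPM in contractile-low cells of Zeb1 MSKO and 8.94 and 4.29 CPM in those of control (median log2 ratio 2.59). Here the contractile-high value of Zeb1 MSKO at 8 weeks fell below the bottom value of Zeb1 MSKO at 9 weeks, although within each library the order was the same.

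The named gene with the highest ratio was Uts2b, which encodes the vasoactive peptide urotensin-2B. Its UMIs numbered 246 and 34 in contractile-high cells of Zeb1 MSKO at 9 and 8 weeks and 311 and 192 in those of control, against 27 and 1 in contractile-low cells of Zeb1 MSKO and 28 and 3 in those of control (median log2 ratio 3.15, which depends on the prior count where contractile-low cells held 1 or 3 UMIs). A Uts2b UMI was present in 12.2% and 1.54% of contractile-high cells of Zeb1 MSKO and in 20.3% and 13.8% of those of control, and in at most 0.253% of luminal progenitor panel cells of any library. At 2500 UMIs per cell these shares were 5.90% and 1.15% in Zeb1 MSKO and 8.15% and 6.31% in control. Uts2b was thus detected in a minority of contractile-high cells at this depth.

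Fbxl22, an F-box protein known from the Z-disc of cardiac muscle, was at 151 and 21.6 CPM in contractile-high cells of Zeb1 MSKO at 9 and 8 weeks and at 138 and 65.7 CPM in those of control, against 25.7 and 3.35 CPM in contractile-low cells of Zeb1 MSKO and 18.2 and 6.19 CPM in those of control. Asb2, the substrate receptor of a ubiquitin ligase that degrades filamins, was at 32.0 and 11.3 CPM in contractile-high cells of Zeb1 MSKO and at 39.4 and 21.4 CPM in those of control, against 5.15 and 1.34 CPM in contractile-low cells of Zeb1 MSKO and 8.77 and 1.91 CPM in those of control. Both genes were highest in contractile-high cells of every library. The remaining named genes were Sh3bgr (median log2 ratio 2.58), the matrix protein opticin, Optc (2.47), Synm, the intermediate filament protein synemin (1.90), the creatine kinase Ckb (1.83), the calmodulin kinase family member Pnck (1.77), the growth factor binding protein Igfbp2 (1.59), Popdc2, a cyclic AMP binding protein of striated muscle (1.57), and Ecscr, known from endothelial cells (1.56). Of the 15 named higher genes, Ecscr and Acta1 did not reach 2-fold in every library. The remaining genes that did were Csrp1, Hacd1, Nkd1 and Speg, named here after their values were seen.

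Acta1, skeletal muscle actin, had a median log2 ratio of 2.27, but its value in the Zeb1 MSKO library at 8 weeks rested on 1 cell. Of 755 Acta1 UMIs there, 586 were in a barcode of 11629 UMIs that also held 286 UMIs of Ckm, 239 of Mylpf and 214 of Tnnt3, all skeletal muscle genes, beside 49 of Krt14. Without it Acta1 was at 15.9 CPM in that library, close to the 16.1 CPM of its contractile-low cells. In the other libraries Acta1 was at 4.60, 2.39 and 5.88 CPM in contractile-high cells of Zeb1 MSKO at 9 weeks and of control at 9 and 8 weeks, against 0.624, 0 and 3.34 CPM in contractile-low cells of the same 3 libraries. Acta1 and Acta2 are close paralogs, and how the counting split reads between them is not known.

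Serum response factor binds CArG boxes, so the promoters of the contractile genes were searched for the consensus form, CC, then 6 letters that are each A or T, then GG, which reads alike on both strands. The promoters were those of RefSeq on GRCm38.p6, from 250 bases before to 50 bases after each start. The box occurred in 535 of 32851 promoters of that length (1.63%), or in 488 of 27025 genes (1.81%). It occurred in 3 of the 12 named higher genes that matched a promoter (Acta1, Asb2 and Fbxl22). Of the 5 named lower genes that matched, 0 held it. In the smooth muscle list outside the rule it occurred in 4 of 25 matched genes (Filip1l, Ldb3, Myl6 and Vcl). Of the 6 contractile genes that ranked the cells, 4 matched a promoter and 1 of these (Myl9) held the box. These are matches of letters in a short window and no measure of binding. The promoters of Fbxl22 (chr9:66514544-66514843, minus strand) and Asb2 (chr12:103355952-103356251, minus strand), the named higher genes whose values do not rest on 1 cell, are shown beside that of Myl9 (chr2:156775214-156775513, plus strand), which encodes the smooth muscle myosin regulatory light chain and belongs to the rule. Each runs 5′ to 3′ on the gene's strand, with the CArG box in capitals.
Fbxl22: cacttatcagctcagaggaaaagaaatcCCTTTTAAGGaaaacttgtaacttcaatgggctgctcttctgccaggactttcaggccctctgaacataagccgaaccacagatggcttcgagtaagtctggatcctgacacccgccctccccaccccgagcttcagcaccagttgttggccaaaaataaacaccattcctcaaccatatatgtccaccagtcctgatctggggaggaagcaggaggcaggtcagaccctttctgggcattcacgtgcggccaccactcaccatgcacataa
Asb2: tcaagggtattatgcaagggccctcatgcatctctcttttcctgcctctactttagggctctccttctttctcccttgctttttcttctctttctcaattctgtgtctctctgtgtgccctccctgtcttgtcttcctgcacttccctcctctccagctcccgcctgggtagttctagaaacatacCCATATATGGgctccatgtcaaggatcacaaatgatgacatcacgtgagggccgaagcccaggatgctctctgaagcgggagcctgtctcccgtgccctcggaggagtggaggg
Myl9: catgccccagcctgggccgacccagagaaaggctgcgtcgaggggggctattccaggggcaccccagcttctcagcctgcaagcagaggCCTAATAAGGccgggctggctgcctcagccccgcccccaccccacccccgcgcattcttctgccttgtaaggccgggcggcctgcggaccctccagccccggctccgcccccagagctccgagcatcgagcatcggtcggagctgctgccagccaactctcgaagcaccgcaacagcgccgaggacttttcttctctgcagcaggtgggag

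**Figure D2:**
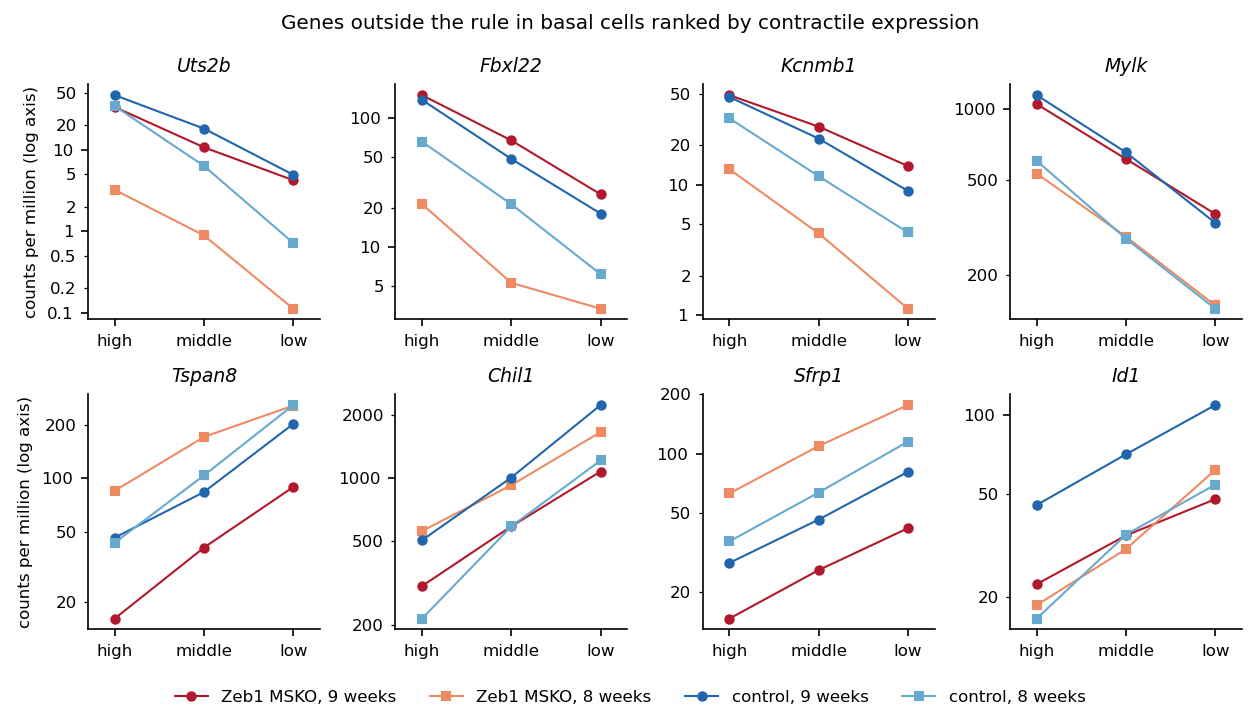
Level (CPM, log axis) of 8 named genes outside the rule in the contractile-high, contractile-middle and contractile-low non-cycling basal cells (high, middle, low), each line 1 library. Uts2b, Fbxl22, Kcnmb1 and Mylk decline and Tspan8, Chil1, Sfrp1 and Id1 climb from high to low in all 4 libraries, with the middle in between.

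Among the genes with lower levels in contractile-high cells, Tspan8, a tetraspanin known as a surface marker of a quiescent basal stem cell subset in mouse, had 16.2 and 85.3 CPM in contractile-high cells of Zeb1 MSKO at 9 and 8 weeks and 46.4 and 43.5 CPM in those of control. In contractile-low cells it had 89.5 and 258 CPM in Zeb1 MSKO and 203 and 259 CPM in control (median log2 ratio -2.28). Chil1, a chitinase-like secreted protein, was at 306 and 560 CPM in contractile-high cells of Zeb1 MSKO and 506 and 215 CPM in those of control, against 1073 and 1653 CPM in contractile-low cells of Zeb1 MSKO and 2221 and 1211 CPM in those of control. For Chil1 every contractile-high value lay below every contractile-low value. Sfrp1, a secreted Wnt antagonist (median log2 ratio -1.51), C4b, a complement component (-1.62), Id1, an inhibitor of basic helix-loop-helix factors (-1.48) and Mxra8, a matrix remodelling associated protein (-1.47), were also 2-fold lower in every library. The other such gene was Ptx3, named after its value was seen.

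Col1a1 and Col1a2, fibrillar collagens typical of fibroblasts, were lower too (median log2 ratios -2.42 and -1.25), as were the chemokine Cxcl2 (-1.31) and the class II gene H2-Ab1 (-1.21). These 4 genes did not pass 2-fold in every library. The sum of the 8 fibroblast markers, which include both collagens, was lower in contractile-high cells at 8 weeks only. They summed to 337 and 165 CPM in contractile-high cells of Zeb1 MSKO and control at 8 weeks, against 531 and 417 CPM in contractile-low cells. At 9 weeks they summed to 178 and 256 CPM in contractile-high cells, against 159 and 197 CPM in contractile-low cells. There the sum went against both collagens, which were lower in contractile-high cells of every library. With doublet calls and filtered barcodes left out, the median log2 ratio was -0.09 for Col1a1 and -0.28 for Col1a2, against -2.42 and -1.25 with them. That of Cxcl2 was then -1.51 and that of H2-Ab1 -1.05. Tspan8 is also a gene of luminal progenitor panel cells (mean 327 CPM), whose 8 panel genes, used by the rule, summed to 321 to 444 CPM in contractile-high cells and 569 to 903 CPM in contractile-low cells. The part of luminal RNA in the Tspan8 difference was not tested.

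The smooth muscle contractile list outside the rule had 26 genes, of which 20 reached 20 CPM in contractile-high or contractile-low cells. All of these 20 were higher in contractile-high cells of all 4 libraries, against 24.0% of all 5052 genes. Their median log2 ratio was 0.83, against -0.0017 over all 5052 genes, and 3 (Mylk, Ppp1r14a and Csrp1) passed 2-fold in every library. Csrp1, a LIM protein of smooth muscle, averaged 2309 CPM in contractile-high cells and 1059 CPM in contractile-low cells, with contractile-middle cells between at 1543 CPM. Cald1, the actin and myosin binding protein caldesmon, averaged 1529, 1058 and 776 CPM over contractile-high, contractile-middle and contractile-low cells, and Tpm1, tropomyosin 1, averaged 1399, 1014 and 765 CPM. For the focal adhesion genes on the list, which link actin to integrins, the median log2 ratio was 0.77 for Vcl (vinculin), 0.71 for Tln1 (talin), 0.83 for Actn1 (alpha-actinin) and 0.52 for Zyx (zyxin).

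The regulators of the smooth muscle programme showed smaller ratios. Of 8 genes considered 3 were higher in all 4 libraries and 1 lower, beside 24.0% and 22.4% of all 5052 genes. The list median was 0.09. Srf, serum response factor itself, averaged 35.4 CPM in contractile-high cells and 23.9 CPM in contractile-low cells (0.50), and Tead1, a transcription factor that partners YAP and TAZ, 48.4 and 36.8 CPM (0.40). Rock2, a kinase that restrains myosin phosphatase, was the other gene (0.09). Foxo1 was lower in all 4 (-0.43). Myocd, the myocardin coactivator, was at most 0.19 CPM in contractile-high cells of any library, and its relatives Mkl1 and Mkl2 averaged 12.6 and 12.1 CPM, below the level of 20 CPM.

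Oxtr, the oxytocin receptor and a rule gene, averaged 131 CPM in contractile-high cells and 86.2 CPM in contractile-low cells. Of the 10 other genes considered on the oxytocin, calcium and contraction list, 6 were higher in all 4 libraries and 0 lower (list median 0.17). The shares over all 5052 genes were 24.0% and 22.4%. Higher were Kcnmb1 and, by less, Itpr1 (the inositol trisphosphate receptor), Atp2a2 (the calcium pump of the reticulum), Prkg1, Camk2d and Calm2 (calmodulin), with median log2 ratios of 0.17 to 0.29. Gnaq and Gna11, the G proteins that couple to the oxytocin receptor, were near 0 (-0.07 and 0.09).

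Of 13 basement membrane genes considered, 11 were higher in all 4 libraries and 0 lower (list median 0.22). Over all 5052 genes these shares were 24.0% and 22.4%. Col4a2, a chain of collagen IV, averaged 201 CPM in contractile-high cells and 136 CPM in contractile-low cells, and Lamb3, a laminin beta chain, averaged 206 CPM in contractile-high cells and 154 CPM in contractile-low cells. Sparc, a collagen-binding matrix protein, averaged 2350 and 2071 CPM. Among 10 basal keratin and hemidesmosome genes outside the rule 5 were higher (list median 0.14). Krt15, a basal keratin, was furthest apart there at 736 CPM in contractile-high cells and 345 CPM in contractile-low cells (1.05), while the integrin subunits Itga6 and Itgb1 differed by 0.17 and 0.18.

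The paracrine ligands divided. Of 13 considered, 8 were higher in all 4 libraries and 2 lower (list median 0.19), beside 24.0% and 22.4% of all 5052 genes. Higher were the Wnt ligands Wnt5b (0.78), Wnt6 (0.77) and Wnt10a (0.57) and the growth factor Tgfb2 (0.60), and lower were the Notch ligand Jag1 (-0.31) and Pthlh, parathyroid hormone-related protein (-0.94), which averaged 21.3 CPM in contractile-high cells and 37.7 CPM in contractile-low cells. Of 9 YAP and TAZ targets considered 6 were higher (list median 0.16), among them Ctgf (0.55). Ankrd1, another target, averaged 11.9 CPM in contractile-high cells and 1.93 CPM in contractile-low cells, below the level of 20 CPM.

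Lists with lower levels were led by luminal and immediate early genes. Of 10 luminal keratin and adhesion genes considered, 6 were lower in all 4 libraries and 1, Spint2, higher (list median -0.39). Over all 5052 genes 22.4% were lower and 24.0% higher. Cldn7 and Cldn4, tight junction claudins, averaged 14.0 and 21.6 CPM in contractile-high cells, against 30.6 and 43.0 CPM in contractile-low cells. Doublet calls marked 44 and 113 contractile-low cells of Zeb1 MSKO at 9 and 8 weeks and 48 and 20 of control. Among contractile-high cells these calls numbered 13 and 99 in Zeb1 MSKO and 18 and 13 in control. The part of doublets or luminal RNA in the luminal gene differences was not tested. Of 16 immediate early and dissociation genes, which rise within minutes of stress or handling, 13 were lower and 0 higher (list median -0.38), with Fos at 481 CPM in contractile-high cells and 844 CPM in contractile-low cells and Jun at 432 and 632 CPM. Median mitochondrial shares were 2.81% and 2.78% in contractile-high cells of Zeb1 MSKO at 9 and 8 weeks and 2.68% and 3.11% in those of control, against 3.09% and 3.04% in contractile-low cells of Zeb1 MSKO and 2.90% and 3.31% in those of control.

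Basal transcription factors were mostly lower. Of 11 considered outside the rule, 6 were lower in all 4 libraries and 2 higher (list median -0.16). For this and the next lists, 22.4% of all 5052 genes were lower and 24.0% higher. The lower transcription factors were Tbx3 (-0.75), Egr2 (-0.41), Sox9 (-0.39), Runx1 (-0.26), Sox10 (-0.20) and Tcf4 (-0.16). The higher ones were Mef2c, a MADS-box transcription factor of muscle (0.71), and Irx4 (0.52). Of 7 stem and progenitor-linked genes considered, Tspan8, Cd24a (-0.64) and Lgr5 (-0.48) were lower in all 4 libraries and the Notch ligand Dll1 (0.15) higher. Among 6 epithelial and EMT genes considered, Vim, vimentin, was higher (0.43) and Epcam (-0.46), Cldn7 (-1.12) and the splicing factor Esrp1 (-0.16) were lower. Interferon-stimulated genes were few at this level (2 of 4 higher, list median 0.03), and no G2 or mitosis gene outside the rule reached 20 CPM.

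**Figure D3:**
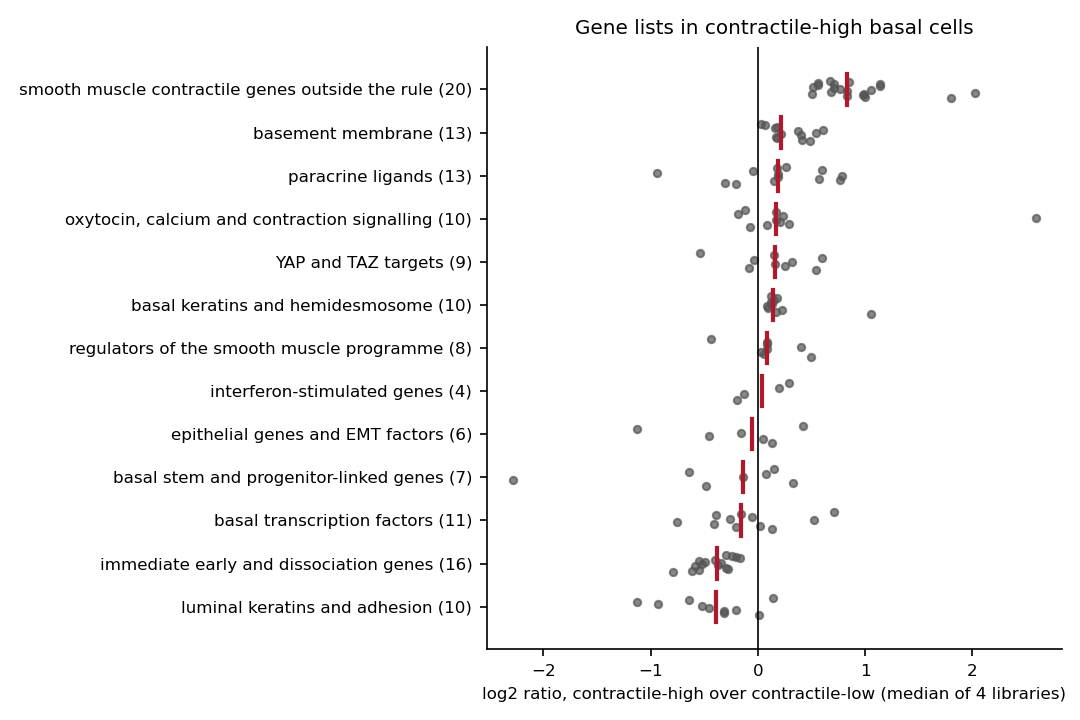
Log2 ratio of contractile-high cells over contractile-low cells (horizontal axis, median of the 4 libraries) for the genes of 13 lists that are outside the rule and reach 20 CPM, 1 dot per gene, with the number of genes in parentheses and the list median in red. The smooth muscle list has the highest median (0.83) and the luminal keratin and adhesion list the lowest (-0.39).

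Zeb1 itself could not check the genotype labels. Contractile-high cells held 2 and 10 Zeb1 UMIs in Zeb1 MSKO at 9 and 8 weeks, and 1 and 4 in control, where 3 UMIs correspond to 0.406 and 0.283 CPM in Zeb1 MSKO and 0.449 and 0.534 CPM in control. Its paralog Zeb2 had 5 and 12 UMIs in Zeb1 MSKO and 0 and 4 in control. Reads came from 3′ ends and the deleted part is not stated, so a deleted allele could still give these UMIs.

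Between genotypes, contractile-high cells of the 2 Zeb1 MSKO and 2 control libraries differed in no gene past the adjusted threshold of 0.05. By edgeR's quasi-likelihood test with Benjamini-Hochberg adjustment, 0 of 11309 genes were called (0%), 98 had an unadjusted p under 0.05, and DESeq2 also called 0, with 87 unadjusted. The rule takes the same share of every library and so did not use the genotype, but it did not match contractile levels. The median contractile sum of contractile-high cells was 345 and 176 in Zeb1 MSKO at 9 and 8 weeks. In control it was 311 and 288, and contractile-middle cells of control at 8 weeks had 162. The part of these levels in the genotype values was not tested. The genes below were named by the smallest p among genes with 1 direction at both ages, and none of them passed (edgeR adjusted p = 0.9998 for each). Leaving out the Zeb1 MSKO library at 9 weeks gave 8 calls, and leaving out any other library gave 0.

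Krt15 had the smallest p. It was at 472 and 439 CPM in contractile-high cells of Zeb1 MSKO at 9 and 8 weeks and at 935 and 1098 CPM in those of control. The log2 fold change was -1.21 (SE 0.24), and both Zeb1 MSKO values lay below both controls, as the naming rule makes likely. A Krt15 UMI was found in 65.9% and 58.9% of cells in Zeb1 MSKO and in 78.7% and 78.7% in control, and after thinning to 2500 UMIs in 43.0% and 41.7% and in 62.4% and 63.0%. In luminal progenitor panel cells, 2.81% to 8.79% held a Krt15 UMI. In contractile-low cells 24.3% and 21.97% of thinned cells held one in Zeb1 MSKO at 9 and 8 weeks, and 32.0% and 32.4% in control.

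Igfbp5, a secreted binder of insulin-like growth factors, was on the higher side, with 1683 and 1524 CPM in Zeb1 MSKO at 9 and 8 weeks and 840 and 932 CPM in control (log2 fold change 0.80, SE 0.21). Fabp5, a fatty acid binding protein, had 200.01 and 216 CPM in Zeb1 MSKO and 97.9 and 115 CPM in control (0.92, SE 0.29), and Col9a1, a chain of collagen IX, 17.2 and 15.5 CPM and 8.68 and 6.95 CPM (1.01, SE 0.32). For these 3 genes both Zeb1 MSKO values lay above both controls, which the naming by small p and 1 direction largely fixes. Rps26-ps1 (1.58, SE 0.36) is a processed copy of a ribosomal protein gene, so its reads may come from near-identical copies and its value is uncertain, and Gm26917 (1.25, SE 0.32) is a predicted gene. Acta1 (3.17, SE 1.12) rests on the single cell described above.

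On the lower side, Cxcl14, a chemokine abundant in basal cells, had 2866 and 2787 CPM in Zeb1 MSKO at 9 and 8 weeks and 5256 and 3738 CPM in control (-0.71, SE 0.20). Wnt11, a Wnt ligand, had 16.4 and 18.5 CPM in Zeb1 MSKO and 38.6 and 31.9 CPM in control (-1.06, SE 0.31). Tmem45a (-1.06, SE 0.32), the receptor phosphatase Ptprz1 (-1.34, SE 0.41) and the glycosyltransferase Galnt16 (-1.13, SE 0.35) were the other named genes.

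**Figure D4:**
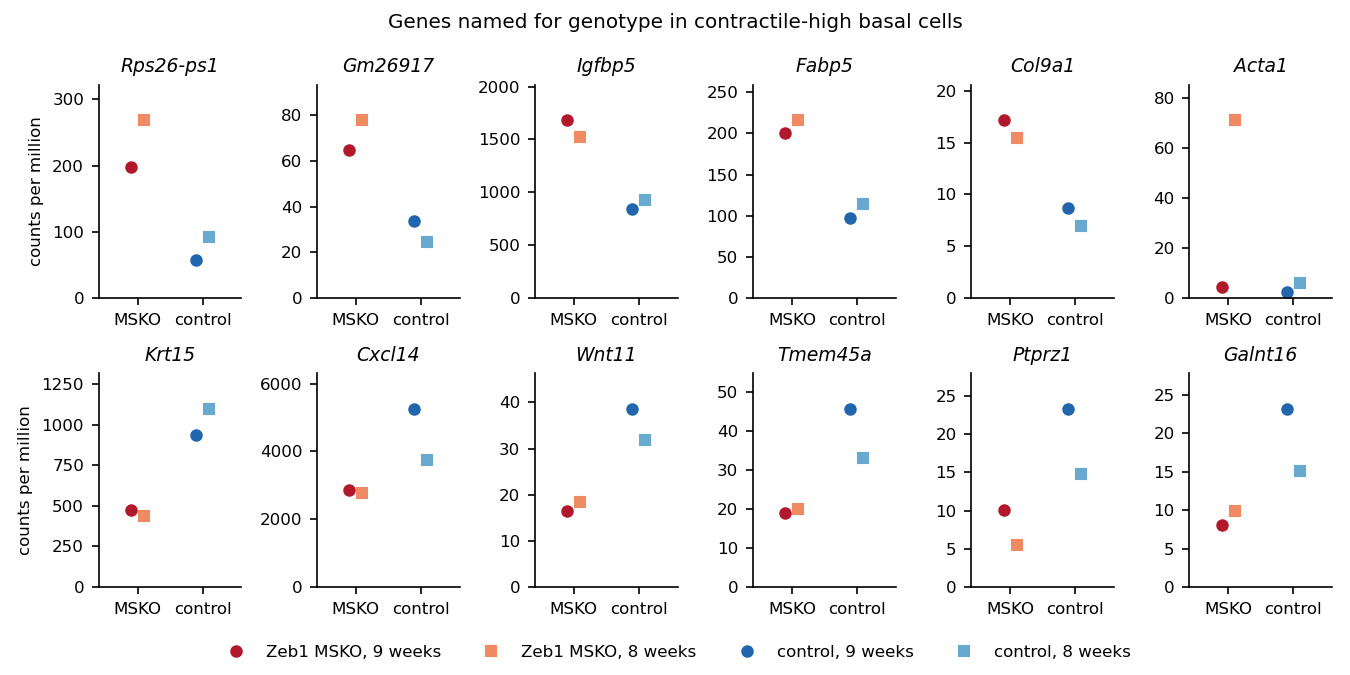
Level (CPM, linear axis from 0) of the 12 genes named for genotype in contractile-high cells, Zeb1 MSKO left of control, circles for 9 weeks and squares for 8 weeks, 1 point per library. None passed edgeR's adjusted threshold, and the Acta1 value of 71.2 CPM in Zeb1 MSKO at 8 weeks comes mostly from 1 cell.

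The contractile genes of the rule had lower values in Zeb1 MSKO at 8 weeks. They chose the cells, so their values are a description and their test results are not read. Acta2, Tagln, Cnn1, Myl9, Actg2 and Tpm2 had a median log2 ratio of Zeb1 MSKO over control of 0.18 at 9 weeks and -0.71 at 8 weeks. Actg2, enteric smooth muscle actin, moved furthest, with 1416 and 360 CPM in Zeb1 MSKO at 9 and 8 weeks and 960 and 1123 CPM in control. Of the 6 genes, 1 was lower in Zeb1 MSKO at both ages and 0 were higher at both. The 25 tested genes of the smooth muscle list outside the rule moved less, with medians of -0.11 at 9 weeks and -0.10 at 8 weeks. At both ages 11 of them were lower and 2 higher, against 15.1% lower and 23.0% higher at both ages among all 11309 genes. Ppp1r14a had 89.1 and 25.6 CPM in Zeb1 MSKO at 9 and 8 weeks and 88.6 and 59.7 CPM in control, while Mylk, Cald1 and Tpm1 stayed within a log2 ratio of 0.18 of control at either age. In summed counts, fewer transcripts per cell and more cells of low expression cannot be told apart. The median contractile sum of contractile-high cells was lower in Zeb1 MSKO than in control at 8 weeks and higher at 9 weeks. The part of this sum in the values of the smooth muscle list was not tested.

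Of the other lists, 0 members were called for genotype in any. The interferon-stimulated genes had 11 of 11 tested members with a positive fold change, against 5757 of all 11309 genes, and 6 higher at both ages, against 23.0% of all genes. The list's median Zeb1 MSKO over control ratio (log2) was 0.46 at 9 weeks, with 0.51 at 8 weeks. Over all genes the medians were 0.03 and 0.05. Most of these genes were low: Ifit1 had 4.46 and 2.26 CPM in Zeb1 MSKO at 9 and 8 weeks and 0.75 and 0.71 CPM in control. Ifitm3, at 4378 and 3192 CPM in Zeb1 MSKO and 3018 and 3494 CPM in control, did not keep 1 direction. Of 16 immediate early genes 14 had a positive fold change, and 5 were higher at both ages (Fos, Fosb, Jun, Ier2 and Zfp36), beside 5757 of 11309 and 23.0% of all genes. Fosb, for example, had 186 and 120 CPM in Zeb1 MSKO and 110 and 75.3 CPM in control. The part of cell handling in these values was not tested. The 16 tested epithelial and EMT genes had a median fold change of -0.11, with 6 positive. Vim was at 558 and 402 CPM in Zeb1 MSKO and at 704 and 534 CPM in control, and Epcam at 415 and 713 CPM and 470 and 638 CPM.

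Whether a genotype difference was larger in contractile-high cells than in contractile-low cells was tested as a state by genotype term with the library as a block. Of 11819 genes it was called for 3 (0.0254%), while 339 had an unadjusted p below 0.05. Each of the 3 was a low gene. Ccl21a, a chemokine whose symbol stands for 2 near-identical genes here and is therefore uncertain, had 395 UMIs in contractile-low cells of control at 8 weeks, of which 394 were in 1 cell, and 58 of its 86 UMIs in contractile-high cells of Zeb1 MSKO at 8 weeks were in 1 cell (log2 difference 8.39, SE 0.61, edgeR adjusted p = 0.000122).

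Rrad, a small GTPase that inhibits calcium channels, had 66 and 214 UMIs in contractile-high cells of Zeb1 MSKO at 9 and 8 weeks and 33 and 60 in those of control, against 47 and 63 in contractile-low cells of Zeb1 MSKO and 97 and 155 in those of control (2.80, SE 0.35, edgeR adjusted p = 0.0167). Ubd, a ubiquitin-like modifier, had 90 and 32 UMIs in contractile-high cells of Zeb1 MSKO and 13 and 14 in those of control, against 26 and 5 in contractile-low cells of Zeb1 MSKO and 35 and 36 in those of control (3.51, SE 0.44, edgeR adjusted p = 0.0167). Single cells held up to 54 of these Rrad UMIs and, in contractile-low cells of control at 8 weeks, up to 23 of these Ubd UMIs. In contractile-high cells of Zeb1 MSKO at 9 weeks the 90 Ubd UMIs were spread over 65 of 797 cells, at most 5 in any. Ubd was present in 13.4% to 34.5% of luminal progenitor panel cells. With doublet calls and low-quality barcodes left out, or with contractile-middle in place of contractile-low cells, edgeR called 0 genes (329 and 467 at an unadjusted p under 0.05). Leaving out Zeb1 MSKO at 9 weeks made the count 170, leaving out Zeb1 MSKO at 8 weeks 77, and leaving out control at 9 weeks 9.

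Age separated the libraries more than genotype did. Between 9 and 8 weeks, 139 of 11309 genes were called (1.23%), 7 higher (0.0619%) and 132 lower (1.17%) at 9 weeks. Each age was 1 pair of libraries, so age and preparation cannot be told apart. The contractile-high threshold also differed between ages. The last cell inside it had a contractile sum of 266.6 and 244.0 in Zeb1 MSKO and control at 9 weeks. At 8 weeks these sums were 124.3 and 215.0. The part of this difference in the age values was not tested. The count also depended on single libraries: leaving out control at 9 weeks made it 1, leaving out control at 8 weeks 368, and leaving out Zeb1 MSKO at 9 weeks 381. With genotype as a replicate block it was 68.

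Cebpb, a transcription factor that acts in mammary epithelial fate and stress responses, fell furthest. It was at 18.8 and 29.0 CPM in contractile-high cells of Zeb1 MSKO and control at 9 weeks, and at 2758 and 1955 CPM at 8 weeks (log2 fold change -6.68, SE 0.32, edgeR adjusted p = 0.0007). Id4, an inhibitor of basic helix-loop-helix factors known from basal cells, fell to 18.7 and 8.53 CPM at 9 weeks, against 202 and 202 CPM at 8 weeks (-3.95, SE 0.35, edgeR adjusted p = 0.00567). Tmem158, a membrane protein induced by Ras, was at 11.1 and 10.5 CPM at 9 weeks and at 116 and 120 CPM at 8 weeks (-3.51, SE 0.21, edgeR adjusted p = 0.00212), and Siah2, a ubiquitin ligase of the hypoxia response, at 12.0 and 19.2 CPM and at 138 and 126 CPM (-3.14, SE 0.27, edgeR adjusted p = 0.00567). For each of these genes both 9 week values lay below both 8 week values. C2cd4b (-5.86), Cxcl2 (-3.84), Btg3 (-3.60), Gm13889 (-3.58), Oaf (-3.22) and Akirin2 (-3.07) were the other named genes that fell.

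The 7 genes that rose at 9 weeks included Ankrd1, Socs3 and Synm. Ankrd1, a YAP target and muscle ankyrin repeat protein, was at 12.6 and 30.7 CPM in Zeb1 MSKO and control at 9 weeks and at 1.70 and 2.67 CPM at 8 weeks (3.30, SE 0.51, edgeR adjusted p = 0.0345). Socs3, a feedback inhibitor of cytokine signalling, was at 631 and 498 CPM at 9 weeks and at 196 and 180 CPM at 8 weeks (1.53, SE 0.20, edgeR adjusted p = 0.0193). Synm, one of the genes higher in contractile-high cells, was at 84.2 and 95.2 CPM at 9 weeks and at 30.4 and 39.2 CPM at 8 weeks (1.31, SE 0.23, edgeR adjusted p = 0.0448). Chst12 (1.90), Gm42418 (1.53), Fam101b, an actin-linked filamin binding protein (1.24), and Rras, a Ras-family GTPase (1.10), were the others. Ankrd1, Synm, Fam101b and Rras were also higher in contractile-high than in contractile-low cells of every library. Socs3 was lower there in every library, and Chst12 and Gm42418 did not keep 1 direction. The part of the higher contractile threshold at 9 weeks in these rises was not tested. The 25 smooth muscle genes outside the rule had a median fold change of 0.35 with 0 called in either direction, and the list of basal transcription factors lost 1 member, Id4. Among paracrine ligands Jag1 was called lower, at 22.8 and 24.1 CPM in Zeb1 MSKO and control at 9 weeks and 78.0 and 66.4 CPM at 8 weeks.

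The lower levels at 9 weeks were not confined to contractile-high cells. Of the 132 genes, 129 were lower at 9 weeks in both genotypes in luminal progenitor panel cells and 128 in hormone-sensing luminal panel cells of the same libraries. Their median log2 ratio of 9 over 8 weeks was -1.90 in contractile-high cells, -1.85 in luminal progenitor and -1.77 in hormone-sensing panel cells in Zeb1 MSKO, and -1.63, -1.57 and -1.54 in control. Cebpb was at 20.5 and 33.0 CPM in luminal progenitor panel cells of Zeb1 MSKO and control at 9 weeks and at 2111 and 2006 CPM at 8 weeks. The 7 higher genes kept their direction in both genotypes for 4 in luminal progenitor and 5 in hormone-sensing panel cells. Synm was low in luminal progenitor panel cells, at 0.554 and 0.518 CPM in Zeb1 MSKO and control at 9 weeks and at 1.07 and 0.398 CPM at 8 weeks.

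**Figure D5:**
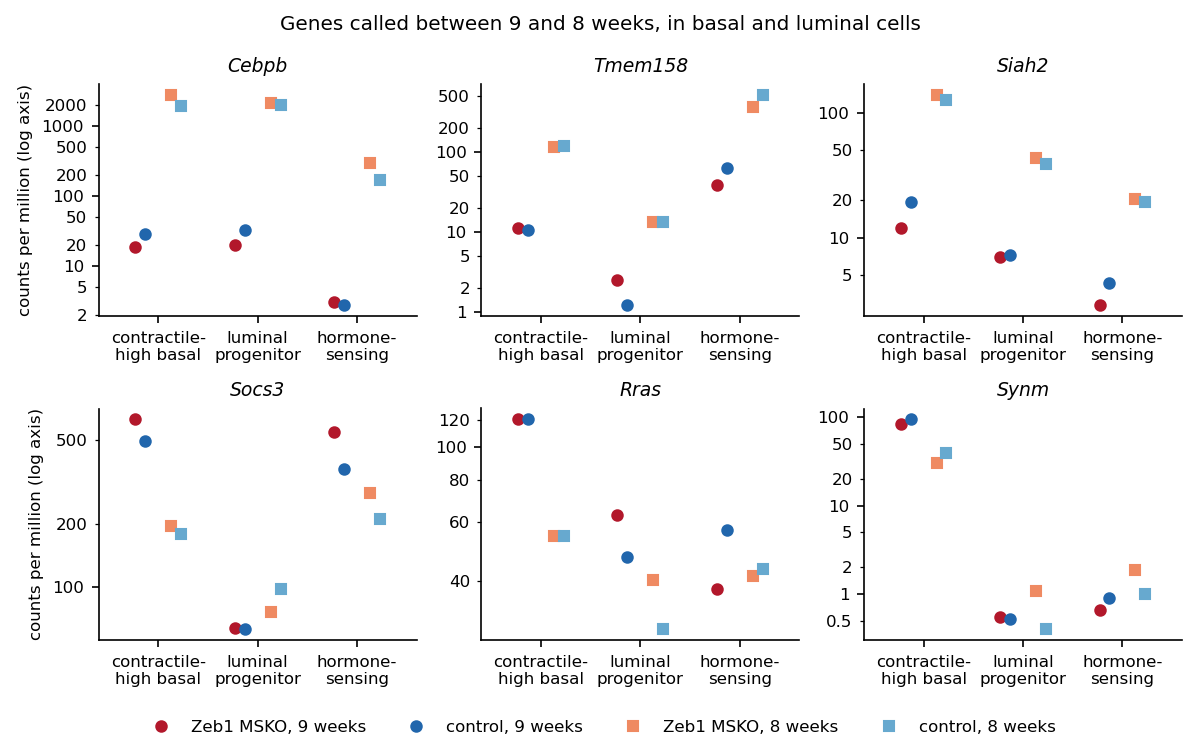
Level (CPM, log axis) of 6 genes called between ages in contractile-high basal cells, shown also in luminal progenitor and hormone-sensing luminal panel cells, 9 weeks (circles) left of 8 weeks (squares), 1 point per library. Cebpb, Tmem158 and Siah2 are lower at 9 weeks in all 3 cell groups, while Socs3 and Synm are higher at 9 weeks in both genotypes of contractile-high cells but not of luminal progenitor panel cells.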

How the data were processed

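Single-cell RNA sequencing counts of 4 mouse mammary libraries were used. The authors deposited 1 matrix of unnormalized UMI counts over 27998 genes and 36884 barcodes. Cell Ranger 2.1.0 and the mm10 build are named in the submitters' processing notes, and the barcode suffix gives the library per the labels. Whether sequencing depth was equalised between libraries is not stated there. Every barcode had at least 2566 UMIs, and all were kept in the selection; an alternative left out barcodes with over 10% mitochondrial UMIs, under 500 genes or a doublet call. Doublet calls came from the share of simulated doublets among a barcode's nearest neighbours in its library (2 simulated per cell, 2000 variable genes, 30 components, 30 neighbours, assumed rate 8%; 2950 barcodes called).

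The members, the gene lists and the tests were chosen with earlier results of these data known. UMIs were summed per library over the chosen cells, and each library counted as 1 replicate (n = 2 for a genotype or an age). Genotype, age and the state by genotype term were tested with edgeR 4.0.16 (quasi-likelihood, TMM scaling, filterByExpr, Benjamini-Hochberg over all genes tested, threshold 0.05), with DESeq2 1.42.0 as an alternative, in R 4.3.3. Fits were also run on simulated data with known fold changes. The simulation had no age difference, so it does not measure how the genotype test performs on these libraries. CPM values are UMIs scaled to the summed cells' total. Log2 ratios between contractile-high and contractile-low cells, and within 1 age, use a prior count of 2; the first had no test, since the rule used that contrast. Counting floors of 3 UMIs cover counting error only.

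Named genes were, for genotype and age, the up to 10 called genes each way with the largest fold change, a mean of at least 10 CPM and 1 direction in both pairs of libraries, filled up to 6 each way by smallest p where fewer were called and given as not past the test. Between contractile-high and contractile-low cells they were the 15 higher and 10 lower genes with the largest median ratio among those of 1 direction in all 4 libraries. Genes of the rule, haemoglobin, immunoglobulin, mitochondrial and sex-linked transcripts were not named.

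The labels pair libraries by age only. Across 11309 genes the 9 over 8 week log2 ratios of Zeb1 MSKO and control had a Pearson r of 0.34, and the genotype ratios at 9 and 8 weeks one of -0.24 (genes are not independent replicates). Fits with age or genotype as a block were alternatives and leave 1 residual degree of freedom.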

Additional observations from a re-analysis of the deposited data

Results flagged for a closer look

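For 3 genes the test of the difference itself found a genotype effect that differed between contractile-high cells and contractile-low cells: Ccl21a (log2 difference 8.39), Rrad (2.80) and Ubd (3.51). Each was positive and each was a low gene, with Ccl21a resting mostly on single cells, as given above. Rrad was found in 2.15% to 4.61% of contractile-high cells and 2.51% to 5.29% of contractile-low cells of a library, with up to 54 UMIs in 1 cell. With filtered barcodes and doublets left out, or with contractile-middle in place of contractile-low cells, 0 genes were called.

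For 4 gene groups the median log2 ratio of Zeb1 MSKO over control in contractile-high cells had opposite signs at the ages, with 1 library per genotype and age, and the difference was not tested. The regulators of the smooth muscle programme had medians of -0.12 at 9 weeks and 0.12 at 8 weeks, the basal keratins and hemidesmosome genes -0.20 and 0.13, the basal stem and progenitor-linked genes -0.18 and 0.27, and the contractile genes of the rule 0.18 and -0.71. The last group moves with the library that stands apart, Zeb1 MSKO at 8 weeks, whose contractile-high cells had a median contractile sum of 176 UMIs per 10000, against 288 in control at 8 weeks.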

How the results depend on the processing

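The count of genes called for genotype was 27 with no filter on low counts and 0 to 8 when 1 library was left out, and 0 under the other alternatives, among them the fit with age as a replicate block. The count for age (139) was 335 with DESeq2, 68 with genotype as a replicate block, 1042 with no filter, 220 with the top 1 in 2 basal cells and 1 to 381 when 1 library was left out. The count for the state by genotype term (3) was 5 with cells chosen at 2500 UMIs, 0 without filtered barcodes and doublets, 0 against contractile-middle cells, 54 with no filter, 1 with the top 1 in 4 and 4 to 170 when 1 library was left out. Against contractile-middle cells Ubd reversed, to a log2 difference of -0.12. The 24 genes 2-fold apart in every library became 43 with the top 1 in 4, 14 with the top 1 in 2 and 5 against contractile-middle cells. Without filtered barcodes and doublets the median log2 ratio of Col1a1 was -0.09, against -2.42 with them, and that of Col1a2 -0.28, against -1.25. The cause of the changes in counts was not tested. Of the single named genes, each paired with each setting, age calls were kept in 194 pairs and lost in 27, genotype genes passed the threshold in 4 and stayed outside it in 152, and ratios of contractile-high over contractile-low cells moved by more than their spread over libraries in 50 and by less in 250, with 0 reversed. Choosing cells at 2500 UMIs kept 89.0% of them.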
